A study of Mus musculus with 4 samples.

Results

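The entries mmu-miR-690, mmu-miR-6236, mmu-miR-6239, mmu-miR-6240, mmu-miR-2137, mmu-miR-6538, mmu-miR-1195, mmu-miR-5126, mmu-miR-8103 and mmu-miR-8105 are 10 of the 1326 listed in the deposited miRNA table, and the species prefix is left out from here on. They were picked for an excess of counts in retinas without functional Ptf1a, mostly in 1 of the libraries, or for a most frequent sequence that differed between the genotypes. All 10 passed the filter of 10 or more counts in at least 2 libraries, as did 584 entries in all. The genotype difference and the sequence differences between genotypes were therefore used to choose them, and both are given as descriptions with no test. Small RNA of 18 to 30 nt was sequenced from whole mouse retina at E18.5, shortly before birth. The groups were Ptf1a-/- embryos (2 libraries), which lack both copies of the gene for a transcription factor that retinal progenitors use to form amacrine and horizontal cells, and Ptf1a+/- embryos (2 libraries), which keep a single copy. Wild-type retina is not analysed here, and Ptf1a mRNA, which would check the genotype labels, is not measured by small RNA reads. The labels do not say whether libraries of a genotype came from separate embryos, so the spread between them may be technical. In whole tissue, fewer cells of a type and less RNA per cell cannot be told apart.

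A miRNA is cut from a hairpin precursor by the nucleases Drosha and Dicer, and 1 strand is loaded into an Argonaute protein. The cuts leave a 5′ end that is nearly always the same base, and the bases just after it, the seed, select the target mRNAs. A 5′ end that moves by even a single base therefore gives another seed. Pieces of longer RNAs, such as ribosomal RNA, transfer RNA or repeat transcripts, also fall in this size range and can be counted under a miRNA name when they share a stretch with it. Whether any of the entries binds Argonaute or represses a target was not measured in these libraries.

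The annotated mature sequences are shown first, because the results turn on how far the reads depart from them. They were taken from RefSeq (GRCm38.p6), which held all 10, and capitals mark the seed (bases 2 to 8).
miR-690: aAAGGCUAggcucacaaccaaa
miR-6236: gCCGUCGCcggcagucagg
miR-6239: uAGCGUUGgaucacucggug
miR-6240: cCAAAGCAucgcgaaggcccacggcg
miR-2137: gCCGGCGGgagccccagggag
miR-6538: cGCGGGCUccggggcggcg
miR-1195: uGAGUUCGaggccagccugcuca
miR-5126: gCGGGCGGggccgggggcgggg
miR-8103: uCUCCUGUucucuguucuccc
miR-8105: aGGCGACUggcgagacccgaag
No seed was shared between these entries. The seed of miR-6239 was shared with miR-6351 and that of miR-6240 with miR-330-3p, and the other 8 seeds were shared with no other mature mouse miRNA in RefSeq.

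The most frequent sequence of each entry in Ptf1a-/- replicate 2, the library with the excess, is shown next, as deposited. Here capitals mark bases that were added to the annotated ends or that differed from the annotation.
miR-690: aaaggctaggctcacaacc
miR-6236: GgccgtcgccggcagtcGgAACG
miR-6239: GACTCTtagcgGtggatcactcggCTCGT
miR-6240: tcgcgaaggcccGcggcgGGTGTTGAC
miR-2137: AAgccggcgggagccccGgggagAGT
miR-6538: CGCGGcgcgggctccggggcgg
miR-1195: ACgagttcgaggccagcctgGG
miR-5126: Cgcgggcggggccggggg
miR-8103: tctcctgttctctgttctcccTT
miR-8105: ggcgactggcgagacccgaagT
In this library only miR-690 and miR-8103 began at their annotated first base. Both lacked a differing base, whereas miR-6236, miR-6239, miR-6240, miR-2137 and miR-1195 each carried at least 1 in this and in every other library.

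Differing bases are written as annotated base, position from 1 at the annotated 5′ end and observed base, with T for U. miR-6240 carried A21G and miR-2137 carried A16G in all 4 libraries. miR-6236 carried A17G and G19A in all 4. miR-6239 carried T6G, T19C and G20T in all 4, the first of which lies inside the annotated seed. miR-1195 carried T1C in all 4 libraries, and C20G and T21G in all but Ptf1a-/- replicate 1, where the sequence ended before those positions. Since the same bases were found in both genotypes, these differences did not move with genotype. Of 279 other tested entries with summed counts in the range of the 10 entries (44 to 660) and a sequence in every library, 10 (3.58%) carried a differing base in all 4 libraries, against 5 of the 10 entries (50%).

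The ends departed from the annotation as well. miR-8103 was the only one of the 10 whose most frequent sequence began at the annotated base in all 4 libraries (10%), against 210 of the 279 other entries (75.3%). For 6 of 10 the start moved between libraries (60%, against 11.1%), and for 5 of 10 a sequence longer than 24 nt was the most frequent in at least 1 library (50%, against 5.38%). None of the 10 had the same sequence in all 4 libraries, against 165 of 279 (59.1%). Part of this contrast, and of that in moved starts, was fixed by picking entries with sequences that differed between genotypes. The sequence was the same within each genotype and not between them for 5 of 10 entries (miR-690, miR-6239, miR-5126, miR-8103 and miR-8105), against 4 of 279 (1.43%), but this feature was part of how the entries were picked. The depth behind a most frequent sequence was uneven and often low. All sequences of an entry together had as few as 8 counts in a library for miR-5126, miR-8103 and miR-8105, and 100 to 282 for miR-6239. How many of them had the sequence shown is not known here. The sequences of the 3 most abundant miRNAs outside the set, miR-9-5p, miR-26a-5p and miR-182-5p, began at the annotated base in every library, with a single length each.

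**Figure D1:**
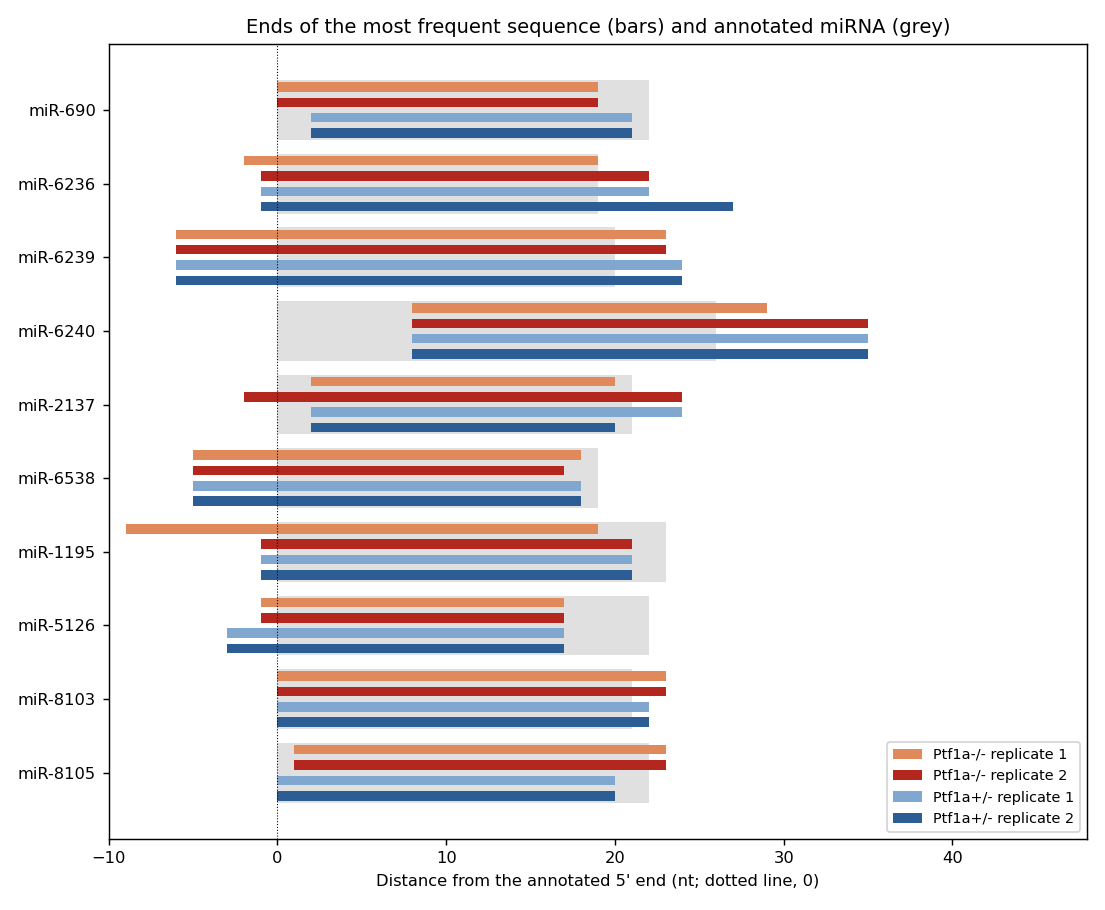
Span of the most frequent sequence of each entry in each library (coloured bars) relative to the annotated miRNA (grey), as distance from the annotated 5′ end in nt. miR-6239 began 6 nt upstream and miR-6240 8 nt downstream of the annotated end in all 4 libraries, while miR-8103 began at it in all 4.

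**Figure D2:**
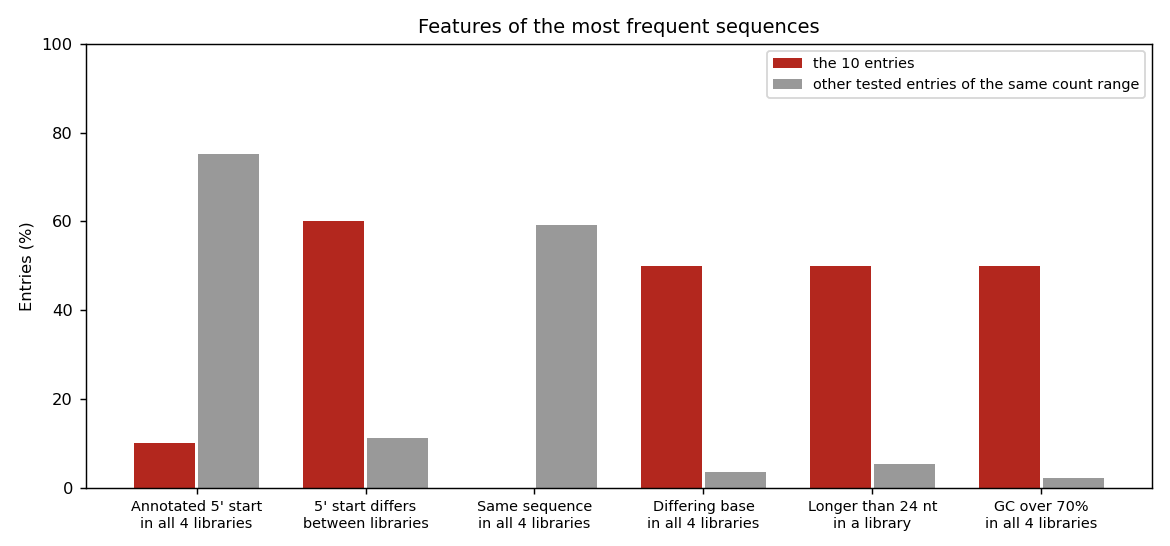
Share of entries with each sequence feature, for the 10 entries (red) and for 279 other tested entries with summed counts in the same range (grey). The annotated 5′ start was kept in all 4 libraries by 10% and 75.3%, and the same sequence was found in all 4 libraries for 0 and 59.1%. Sequence differences between genotypes were part of how the 10 were picked, which fixed part of these contrasts.

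miR-6239 kept its start, as miR-6240 did. Its most frequent sequence began 6 nt upstream of the annotated end in all 4 libraries and was 29 nt long in both Ptf1a-/- libraries and 30 nt in both Ptf1a+/- libraries, the upper limit of the gel cut. The Ptf1a+/- sequence was
miR-6239 in Ptf1a+/-: GACTCTtagcgGtggatcactcggCTCGTG
which has 1 more G at its 3′ end than the sequence of the Ptf1a-/- libraries above. Set against the annotated precursor without gaps, the sequences differed at 9 of 29 and 10 of 30 positions. A stretch of 16 nt was shared exactly with n-R5-8s1, a gene annotated as nuclear 5.8S ribosomal RNA. Among 356 annotated rRNA transcripts this was the longest stretch shared by any tested entry, the other 574 entries outside the set reaching at most 15 nt and the other 9 of the set at most 11. Full-length nuclear 5.8S, 18S, 28S and 45S rRNA and tRNA were not searched here. The 16 nt is therefore a match to this annotated gene and not a measure of the match to 5.8S rRNA itself. For the same reason the shorter stretches of the other 9 of the set do not measure their match to full-length rRNA.

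miR-6240 began 8 nt downstream of its annotated end and so lacked the annotated seed in every library. It ran 9 nt past the annotated 3′ end in Ptf1a-/- replicate 2 and in both Ptf1a+/- libraries, and 3 nt past it in Ptf1a-/- replicate 1. Apart from A21G the whole 27-nt sequence matched its own precursor, so the added 3′ bases are those of the precursor. No other gene in the 141767 transcripts of GENCODE M21 came within 2 mismatches of it. Full-length nuclear rRNA was not part of that search, so whether this sequence also matches it is not known here.

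The start of miR-2137 moved by 4 nt within the Ptf1a-/- genotype. It lay 2 nt upstream of the annotated end in Ptf1a-/- replicate 2, with a length of 26 nt, and 2 nt downstream in the other libraries, with a length of 18 nt in Ptf1a-/- replicate 1 and of 22 and 18 nt in Ptf1a+/- replicates 1 and 2. The 18-nt form, shown because it is the one shared by both genotypes, was
miR-2137 in Ptf1a-/- replicate 1: cggcgggagccccGggga
and differed from the miR-2137 precursor at 1 position, while the 26-nt form differed at 6. miR-6236 began 2 nt upstream in Ptf1a-/- replicate 1 and 1 nt upstream in the other 3 libraries. Its length was 21 and 23 nt in Ptf1a-/- replicates 1 and 2, against 23 and 28 nt in Ptf1a+/- replicates 1 and 2. No annotated transcript came within 2 mismatches of any of its forms, its own precursor included, from which they differed at 3 to 8 positions. Full-length nuclear rRNA was not searched for miR-6236 or miR-2137 either.

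miR-1195 had the largest shift of the set. In Ptf1a-/- replicate 1 its most frequent sequence began 9 nt upstream of the annotated end, and in the other 3 libraries 1 nt upstream.
miR-1195 in Ptf1a-/- replicate 1: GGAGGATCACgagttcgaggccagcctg
The 18 nt common to all its forms and to the annotation, gagttcgaggccagcctg, occurred in the sense orientation in 740 of the 141767 annotated transcripts (0.522%), from 615 genes, and in antisense in transcripts of 643 genes. Mouse B1 elements, short repeats spread through introns and untranslated regions, carry closely related sequence. For the other 9 entries the matching common stretch occurred in at most 28 transcripts. The whole sequences matched no annotated transcript exactly. The 22-nt form differed from its own precursor at 4 positions and the 28-nt form at 8. Transcripts of 4 genes (AC118724.1, Ash2l, Lrrc17 and Prf1) came within 1 mismatch of the 22-nt form, and Tmem245 of the 28-nt form. The reads of miR-1195 therefore cannot be assigned to its annotated locus from their sequence.

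miR-6538 and miR-5126 are almost pure G and C. The most frequent sequences of miR-6538 were 95.5 to 95.7% GC and those of miR-5126 were 100% GC, against a median of 47.8% over 1119 sequences of the 280 tested entries of like count. Over 70% GC in all 4 libraries was found for 5 of the 10 entries, namely these 2, miR-6236, miR-6240 and miR-2137, and for 2.15% of the 279. miR-6538 began 5 nt upstream in all 4 libraries and ended 1 nt earlier in Ptf1a-/- replicate 2 than elsewhere. miR-5126 began 1 nt upstream in both Ptf1a-/- libraries and 3 nt upstream in both Ptf1a+/- libraries, with as few as 14 and 8 counts behind the call in a library of each genotype. Its 18-nt Ptf1a-/- form matched 1 annotated gene exactly, its own precursor, with 2 further pairs of gene and transcript class at 1 mismatch and 79 at 2 mismatches. The 20-nt form of both Ptf1a+/- libraries matched no annotated gene exactly. It differed from its own precursor at 2 positions and from a transcript of H2-Q1 at 1.

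miR-690 kept its annotated bases but not its ends. The Ptf1a-/- libraries had the form shown above, at the annotated start and with the 3 last bases missing, and the Ptf1a+/- libraries a form of equal length that began 2 nt downstream.
miR-690 in Ptf1a+/-: aggctaggctcacaaccaa
The annotated seed was thus present in the most frequent sequence of both Ptf1a-/- libraries and in that of neither Ptf1a+/- library. Both forms matched 16 annotated miRNA precursors of 79 to 110 nt without a mismatch, so the locus of the reads cannot be told from their sequence. miR-8105 showed the reverse arrangement, the Ptf1a-/- libraries beginning 1 nt downstream of the annotated end and the Ptf1a+/- libraries at it. miR-8103 differed between genotypes at its 3′ end only, with TT added in both Ptf1a-/- libraries and T in both Ptf1a+/- libraries. The first added T is a base of its precursor and the second is not.
miR-8105 in Ptf1a+/-: aggcgactggcgagacccga
miR-8103 in Ptf1a+/-: tctcctgttctctgttctcccT
These last contrasts rest on 8 to 18 counts per library for all sequences of an entry together.

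Seen over the libraries, the annotated seed was the observed one in all 4 libraries for miR-8103, in the Ptf1a-/- libraries for miR-690, in the Ptf1a+/- libraries for miR-8105 and in none for the other 7. The most frequent sequence lay whole within the entry's own precursor in all 4 libraries for miR-690 alone (10%), against 65.6% of 221 other entries of like count with an annotated precursor. For 6 of the 10 it did so in no library (60%, against 16.3%). Those 6 were miR-6236, miR-6239, miR-6240, miR-2137, miR-6538 and miR-1195. The sequences of miR-5126, miR-8103 and miR-8105 lay whole within the precursor in a single genotype. Part of the contrast over all 4 libraries was thus fixed by picking entries with sequences that differed between genotypes.

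The annotated precursors lie on 10 different chromosomes (GRCm38, GENCODE M21). Mir690 (chromosome 16, 28599935 to 28600043, minus strand), Mir2137 (chromosome X, 72992079 to 72992144, plus strand), Mir6538 (chromosome 12, 26414901 to 26415010, minus strand) and Mir8103 (chromosome 11, 97063768 to 97063874, plus strand) lie in introns of Fgf12, Zfp185, Rnf144a and Osbpl7 on the strand of that gene. Mir6239 (chromosome 14, 117953743 to 117953847, minus strand) and Mir1195 (chromosome 17, 70860503 to 70860600, minus strand) lie opposite to introns of Gpc6 and of the pseudogene Gm9320. Mir5126 (chromosome 1, 84695839 to 84695915, plus strand) lies opposite to an exon of Dner. Mir6236 (chromosome 9, 110281287 to 110281409, plus strand), Mir6240 (chromosome 5, 114851948 to 114852064, plus strand) and Mir8105 (chromosome 10, 128458680 to 128458768, plus strand) overlap no other annotated gene. None of the 10 has a 5p or 3p suffix or a listed partner strand, whereas 92.1% of tested entries carry such a suffix. In the predicted minimum free energy fold of the precursors the mature bases were paired to 68.2% (miR-690 and miR-5126) up to 95.2% (miR-8103), with a median of 76.0%, against 82.6% over 513 pairs of other tested entries and precursors. The annotated miRNA lay on 1 side of a stem for 9 of 10, the exception being miR-6239, against 99.4% of the 513.

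Listed counts summed to 3658490 and 3917069 in Ptf1a-/- replicates 1 and 2, against 3647145 and 4385834 in Ptf1a+/- replicates 1 and 2. Levels are CPM (counts scaled to library size) after TMM scaling, which corrects for a few abundant miRNAs taking a larger share of a library. The TMM factor was 1.06 and 0.829 in Ptf1a-/-, against 1.06 and 1.07 in Ptf1a+/-, and 3 counts were worth 0.774 and 0.924 CPM against 0.775 and 0.638 CPM. The total behind the deposited CPM was inferred from the median ratio of counts to deposited CPM over abundant entries. What it holds beyond the listed entries is not known here. That remainder was 22.7 and 27.9% of the inferred total in Ptf1a-/- replicates 1 and 2, against 17.05 and 16.3% in Ptf1a+/-. It was largest in the library with the excess, and its part in the results was not tested. Over all 584 entries edgeR's quasi-likelihood test called 36 entries higher in Ptf1a-/- (6.16%) and 21 entries lower (3.6%), with the adjusted p required to be under 0.05. Without Ptf1a+/- replicate 1, edgeR called 0 higher and 0 lower (30 and 16 at an unadjusted p under 0.05). The 5 markers of retinal neurons (miR-124-3p, miR-9-5p, miR-183-5p, miR-182-5p and miR-96-5p) summed to 363500 and 518000 CPM in Ptf1a-/-, against 340300 and 337100 CPM in Ptf1a+/-, none of them called. The sums for other tissues were 3204 and 3566 CPM in Ptf1a-/- against 3690 and 3730 CPM in Ptf1a+/- for pigment epithelium, 83.25 and 123.2 against 96.35 and 94.99 CPM for blood, 352 and 587 against 593 and 614 CPM for vessels, and 227 and 300.5 against 305 and 292 CPM for surface epithelium, with 2 of 11 tested markers called, miR-204-3p and miR-200b-3p, both lower. In each of these sums Ptf1a-/- replicate 2 was above replicate 1, and for blood it was also above both Ptf1a+/- libraries. The blood markers miR-451a and miR-144-3p had 0 to 2 counts in every library. Surface epithelium markers were mixed too, with both Ptf1a-/- libraries above both Ptf1a+/- libraries for miR-203-3p and below both for miR-184-3p. The part of these cells in the results was not tested.

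Together the 10 entries took 522 and 1491 counts in Ptf1a-/- replicates 1 and 2, which is 0.0143 and 0.0381% of listed counts, against 329 and 406 counts in Ptf1a+/-, which is 0.00902 and 0.00926%. Their summed level was 134.7 and 459 CPM in Ptf1a-/-, against 85.0 and 86.4 CPM in Ptf1a+/-. Ptf1a-/- replicate 2 thus stood apart from the other 3 libraries, and the log2 ratio of the genotype means, 1.79, was 0.67 without it. For 7 of the 10 entries the lower Ptf1a-/- library exceeded the higher Ptf1a+/- library, a pattern held by 26.7% of all tested entries. For 1 entry both Ptf1a-/- libraries were the lowest, as they were for 31.5% of all. Since the entries were picked on this contrast, nothing is read from those counts. The highest library was Ptf1a-/- replicate 2 for 8 entries and a Ptf1a+/- library for miR-8103 and miR-8105, so the description of the set as higher in 1 library holds for 8 of its 10 members.

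**Figure D3:**
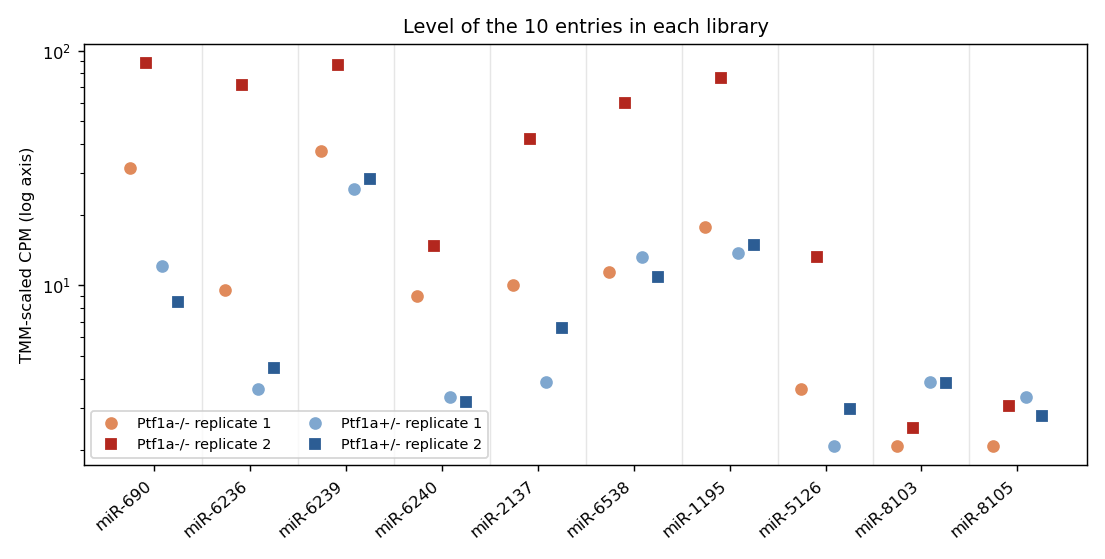
Level of each entry in each library in TMM-scaled CPM on a log axis, Ptf1a-/- in red and orange, Ptf1a+/- in blue, 1 point per library. Ptf1a-/- replicate 2 is the highest point for 8 entries, and the Ptf1a+/- pair lies at the top for miR-8103.

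Among the entries with differing bases, miR-6236 had the largest ratio between genotypes. It had 37 and 232 counts in Ptf1a-/-, against 14 and 21 counts in Ptf1a+/-, or 9.55 and 71.4 CPM against 3.62 and 4.47 CPM. Ptf1a-/- replicate 2 was 7.48-fold above replicate 1 (95% counting interval 5.27 to 10.9), more than replicate 1 was above the Ptf1a+/- pair (2.34-fold, 1.43 to 3.83). Here and below, such intervals cover counting error only and not the spread between libraries. The entries were picked from these same counts and sequences, so the intervals describe depth and are no test. The log2 ratio of the genotype means, 3.32, ranked first of 584 and was 1.26 without Ptf1a-/- replicate 2.

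miR-2137 had 39 and 137 counts in Ptf1a-/-, against 15 and 31 counts in Ptf1a+/-. The levels were 10.1 and 42.2 CPM against 3.88 and 6.59 CPM. The genotypes did not overlap, but the Ptf1a-/- libraries were 4.19-fold apart (2.92 to 6.15), and the log2 ratio of 2.32 was 0.96 without replicate 2. miR-1195 had 69 and 249 counts in Ptf1a-/-, against 53 and 70 counts in Ptf1a+/-, or 17.8 and 76.7 CPM against 13.7 and 14.9 CPM. Its replicate 1 lay only 1.24-fold above the Ptf1a+/- pair (0.911 to 1.68), and the log2 ratio of the genotype means, 1.73, was 0.34 without replicate 2.

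miR-6239, the most abundant of the set in Ptf1a+/-, had 145 and 282 counts in Ptf1a-/-, against 100 and 133 counts in Ptf1a+/-. Its levels were 37.4 and 86.8 CPM against 25.8 and 28.3 CPM, without overlap, and the log2 ratio of 1.20 was 0.49 without Ptf1a-/- replicate 2. miR-6240 was the entry with the smallest gap between the Ptf1a-/- libraries among those that were highest in replicate 2. It had 35 and 48 counts in Ptf1a-/-, against 13 and 15 counts in Ptf1a+/-, or 9.04 and 14.8 CPM against 3.36 and 3.19 CPM. Ptf1a-/- replicate 1 alone lay 2.77-fold above the Ptf1a+/- pair (1.64 to 4.72) and replicate 2 lay 1.64-fold above replicate 1 (1.04 to 2.61).

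The GC-rich entries without differing bases split. miR-6538 had 44 and 195 counts in Ptf1a-/-, against 51 and 51 counts in Ptf1a+/-, or 11.4 and 60.1 CPM against 13.2 and 10.9 CPM. Ptf1a-/- replicate 1 fell between the Ptf1a+/- libraries, so the genotypes overlapped, and without replicate 2 the log2 ratio was -0.061 in place of 1.57. miR-5126 had 14 and 43 counts in Ptf1a-/-, against 8 and 14 counts in Ptf1a+/-, or 3.61 and 13.2 CPM against 2.07 and 2.98 CPM. Its Ptf1a-/- replicate 1 was within counting error of the Ptf1a+/- pair (1.41-fold, 0.666 to 2.88), and the log2 ratio of 1.74 was 0.54 without replicate 2.

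miR-690 had 123 and 287 counts in Ptf1a-/-, against 47 and 40 counts in Ptf1a+/-. Both Ptf1a-/- libraries were above both Ptf1a+/- libraries, replicate 1 by 3.13-fold over the pair (2.36 to 4.17), the largest such ratio of the set. It had a log2 ratio of 2.54 between genotype means and 1.64 without Ptf1a-/- replicate 2. Leaving out that library thus lowered the ratio, and what remained rests on Ptf1a-/- replicate 1 alone. Since miR-690 was picked from these same counts and sequences, nothing is read from the remaining excess.

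miR-8103 and miR-8105 were low in every library. miR-8103 had 8 and 8 counts in Ptf1a-/-, against 15 and 18 counts in Ptf1a+/-, or 2.07 and 2.46 CPM against 3.88 and 3.83 CPM. Both Ptf1a-/- libraries lay below both Ptf1a+/- libraries, with a pooled ratio of 0.584 and a counting interval of 0.300 to 1.09. miR-8105 had 8 and 10 counts in Ptf1a-/-, against 13 and 13 counts in Ptf1a+/-, or 2.07 and 3.08 CPM against 3.36 and 2.77 CPM. Its genotypes overlapped (pooled ratio 0.833, 0.430 to 1.58), and no difference could be shown at this depth.

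The gap between the Ptf1a-/- libraries, set beside that of all entries, gives the scale of the replicate 2 excess. Replicate 2 was at least 2-fold above replicate 1 for 7 of the 10 entries, as it was for 29 of all 584 (4.97%), and this too was part of the choice. The 10 log2 ratios had a median of 1.68 and a range of 0.25 to 2.90, while the median over all 584 was 0.01. The Ptf1a+/- libraries differed far less for the same 10 entries, with log2 ratios of replicate 2 over replicate 1 from -0.51 (miR-690) to 0.77 (miR-2137) and a median of 0.05. The choice of entries built in a wider gap in Ptf1a-/-, so nothing is read from this contrast. Over all tested entries with a count in both libraries, the ratios ran from -2.205 to 2.903 in Ptf1a-/- and from -1.765 to 1.594 in Ptf1a+/-.

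**Figure D4:**
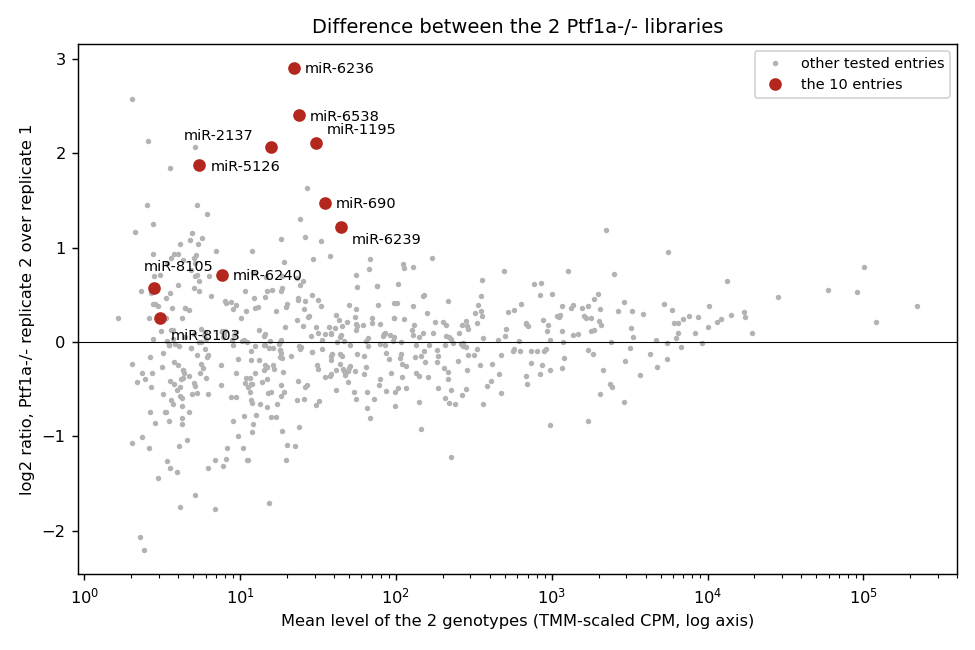
log2 ratio of Ptf1a-/- replicate 2 over replicate 1 against the mean level for all tested entries with a count in both (grey) and the 10 entries (red), on a log axis of TMM-scaled CPM. miR-6236 has a ratio of 2.90 and miR-8103 of 0.25.

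Entries outside the set were compared for pattern over the 4 libraries, as the distance between mean-centred log2(CPM + 1) values and the mean of the set. The nearest were miR-375-3p (distance 0.159) and miR-709 (0.238), followed at 0.824, 0.838 and 0.853 by miR-379-5p, miR-382-5p and miR-134-5p. miR-375-3p, a miRNA of endocrine and some neural cells, had 73 and 189 counts in Ptf1a-/-, against 54 and 75 counts in Ptf1a+/-. Its most frequent sequence was 22 nt long and began at the annotated base in all 4 libraries, so the level pattern of the set also occurred in an entry with regular ends. miR-709 had 12 and 42 counts in Ptf1a-/-, against 9 and 10 counts in Ptf1a+/-. Its start lay 3 and 2 nt upstream of the annotated end in the Ptf1a-/- libraries, against 10 nt upstream and 1 nt downstream in Ptf1a+/- replicates 1 and 2, so its ends were irregular.

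Among tested entries outside the set, the largest ratios of Ptf1a-/- replicate 2 over replicate 1 belonged to entries with few counts. miR-3061-3p had 2 and 10 counts in Ptf1a-/-, against 11 and 8 counts in Ptf1a+/-. miR-344d-3p had 3 and 11 counts in Ptf1a-/-, against 15 and 10 counts in Ptf1a+/-. miR-709, given above, followed. miR-10a-5p and miR-196a-5p had 0 counts in replicate 1 and 2 counts in replicate 2, so no ratio is given for them. Of these, only miR-709 lay above both Ptf1a+/- libraries in both Ptf1a-/- libraries. miR-6238, named after its values were seen, did not pass the filter and had a larger log2 ratio between the Ptf1a-/- libraries, 4.14, than any of the 10 entries. It had 4 and 59 counts in Ptf1a-/-, against 6 and 5 counts in Ptf1a+/-, so its excess too was in replicate 2.

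A wider list held mouse entries known or suspected to be pieces of other RNAs. Of 21 named, 10 were listed and 8 tested. Among the 8 the median log2 ratio of Ptf1a-/- over Ptf1a+/- was -0.05 and that of Ptf1a-/- replicate 2 over replicate 1 was -0.35, against -0.01 and 0.01 over all 584 entries. miR-1839-5p, from a small nucleolar RNA, had 2021 and 1724 counts in Ptf1a-/-, against 1445 and 1848 counts in Ptf1a+/-, or 522 and 531 CPM against 373 and 393 CPM, and was called higher (log2 fold change 0.46, adjusted p = 0.0499 by edgeR). This is 1 of 8, beside 6.16% over all entries, and the call was lost without either Ptf1a+/- library, when edgeR called 0 entries higher. The other 7 were not called. miR-5099 was the only one at least 2-fold higher in replicate 2 than in replicate 1 of Ptf1a-/- (27.4 and 12.9 CPM), while miR-6412 went the other way with 28.1 and 8.62 CPM in Ptf1a-/- replicates 1 and 2, against 11.1 and 13.4 CPM in Ptf1a+/-.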

How the data were processed

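Small RNA libraries of 4 mouse retina samples (2 Ptf1a-/-, 2 Ptf1a+/-) were used as deposited. Genotypes and replicate numbers came from the sample titles. Per the labels' protocols, 18 to 30 nt RNA was cut from a gel and libraries were made with an NEB small RNA kit. Molecular identifiers are not described, so counting error is all that intervals cover. The submitters' processing notes name bcl2fastq 2.20.0.422. The aligner, the counter and the handling of reads matching several entries are not given in the sources used. The authors' raw table holds estimated counts (5.73 to 7.84% of values per library are not whole, none of them in the 10 entries), which were rounded for the count test. The authors' CPM table divides the same values by a larger total per library, the deposited CPM. The deposited sequence table is text, written against miRBase22 per the file headers.

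The 10 entries and the lists were chosen with earlier results of these data known. Named others follow the rule of nearest pattern (5 entries), largest ratio between the Ptf1a-/- libraries (5) and highest mean CPM (3). Over all entries edgeR 4.0.16 (quasi-likelihood, TMM, R 4.3.3) with Benjamini-Hochberg adjustment was used, checked on simulated counts. Whole counts had been assumed in the design. The alternatives were DESeq2 1.42.0 and limma 3.58.1 (log2(CPM + 1)). Intervals are Clopper-Pearson (95%) on counts scaled by effective library size. Sequences were matched to RefSeq (GRCm38.p6) and GENCODE M21, whose build is not known to be the authors' own, and precursors folded with RNAfold 2.7.2.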

Additional observations from a re-analysis of the deposited data

How the results depend on the processing

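The summed level of the 10 entries kept its direction under every alternative run, with log2 ratios of 1.81 with DESeq2 size factors, 1.52 with library size only, 1.34 on the deposited CPM and 0.67 to 2.42 when a library was left out. The entries were picked for an excess in Ptf1a-/- in these same counts, so nothing is read from the kept direction. Of 100 values of single entries under alternatives, 88 moved by less than the spread between libraries (or the counting interval), 8 by more, and 4 changed sign. With a library left out, the log2 ratio of miR-6538 ranged from -0.061 (without Ptf1a-/- replicate 2) to 2.32 and that of miR-8105 from -0.55 to 0.0082 (without Ptf1a-/- replicate 1), miR-8105 having -0.65 on the deposited CPM, and the ratio of miR-8103 between the Ptf1a-/- libraries was -0.10 with library size only and -0.18 on the deposited CPM. For the ratio between genotypes these scalings shift all entries (median log2 ratio -0.18 and -0.32, against 0.00 with TMM). No such median is given for the ratio between the Ptf1a-/- libraries. The 36 higher and 21 lower calls over all entries were 43 and 17 with DESeq2 and 33 and 18 with its size factors in edgeR, but 4 and 12 with library size only, 12 and 9 with no filter, 1 and 27 with limma on the deposited CPM, and 0 to 137 in either direction without a library. Replicates of Ptf1a-/- differed by a chi-square of 8.68 per degree of freedom over 421 entries of moderate count, against 1.11 over 434 for Ptf1a+/-. Over all entries with 20 or more summed counts it was 120.1 over 555 for Ptf1a-/- and 1.85 over 579 for Ptf1a+/-, so both pairs differed by more than sampling noise there (chi-square p = 5.13e-32 for Ptf1a+/-). With the Ptf1a+/- pair summed, an alternative chosen after seeing the data, edgeR called 0 higher and 1 lower (35 and 27 at an unadjusted p under 0.05). Higher and lower calls numbered 137 and 127 without Ptf1a-/- replicate 1, and 137 and 137 without Ptf1a-/- replicate 2. Without Ptf1a+/- replicate 1 edgeR called 0 and 0 (30 and 16 unadjusted), and without replicate 2 0 and 1 (31 and 16 unadjusted). With replicate number as a block, 5 were higher and 7 lower; the numbers are shared only by name (correlation of deviations 0.0532). Depth limits miR-8103, miR-8105 and miR-5126 most.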
